A study of Mus musculus with 2 samples.

Results

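Nodal and activin signalling genes were described in embryonic stem (ES) cells labelled as Ago1 knockouts. The 10 genes were taken by symbol from a table of 55421 Ensembl gene identifiers: the ligand genes Nodal and Gdf3, the co-receptor gene Tdgf1, the inhibitor genes Lefty1 and Lefty2, the receptor genes Acvr1b and Acvr2b, the transducer genes Smad2 and Smad3, and Foxh1, a transcription factor gene. All 10 symbols were found. The cells were mouse E14 ES cells, an established line of blastocyst origin with a 129/Ola background, and are labelled as carrying a knockout of Ago1. They were grown in serum medium with leukaemia inhibitory factor (LIF) on gelatin. Polyadenylated RNA from Trizol extracts was sequenced in duplicate with a TruSeq kit, reverse-stranded per the labels, and the libraries are called KO1 and KO2. The labels do not say whether the duplicates are separate clones or cultures, and their spread may be technical only. Both libraries belong to the same group, and no library of cells with intact Ago1 was analysed here. The data give the levels of these genes in cells labelled knockout and the agreement of the duplicates, not an effect of the knockout.

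Nodal is a ligand of the transforming growth factor beta family. It binds activin receptors, which are pairs of a type I and a type II kinase, together with a co-receptor of the EGF-CFC family. The type I kinase phosphorylates SMAD2 and SMAD3, which join SMAD4 in the nucleus and act there with partners such as FOXH1. Nodal, Lefty1 and Lefty2 are themselves targets of the pathway, and the Lefty proteins block Nodal and its co-receptor, which closes a negative feedback loop. In the early mouse embryo the pathway maintains the epiblast and directs mesoderm and endoderm formation. Cultured mouse ES cells make Nodal and respond to it. Argonaute proteins, of which Ago1 encodes one, carry microRNAs to their target transcripts.

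KO1 held 57048330 counts and KO2 held 54408708. Ago1, the targeted gene, kept 1497 reads in KO1 and 452 in KO2, which is 26.4 and 8.27 counts per 1000000 (CPM). Ago1 was 3.18-fold higher in KO1 (95% exact counting interval 2.87 to 3.55), wholly beyond 2-fold, so the libraries labelled knockout differed in the targeted gene itself. Where along Ago1 these reads fell cannot be seen from gene totals. Of the ES cell markers Pou5f1, Nanog, Sox2, Zfp42, Esrrb and Klf4, 6 of 6 were detected, with a median of 776 transcripts per 1000000 (TPM) in KO1 and 692 TPM in KO2. Of 7 fibroblast markers, 1 was detected, and Lum and Postn had no reads. The detected one was Thy1, at 20.4 CPM in KO1 and 23.9 CPM in KO2, where all 7 summed to 21.2 and 25.4 CPM. Of 6 primitive endoderm markers, 6 were detected, with a summed level of 99.9 CPM in KO1 and 105 CPM in KO2. Of 7 skeletal muscle markers, listed because earlier results of these data named them, 0 reached the detection level in both libraries. Their sum was 11.2 CPM in KO1 and 1.70 CPM in KO2. Single markers ran from 0.968 CPM (Tnnc2) to 2.08 CPM (Acta1) in KO1 and from 0 (Myl1) to 0.439 CPM (Ckm) in KO2. For 7 of 7 the 95% counting interval lay wholly on the side of KO1, beside 31.2% of all genes compared. Because earlier results of these data had named these 7 markers, their count cannot be compared with that share. The part of these other cell types in the levels given here was not tested.

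All 10 genes were detected, here meaning that each library reached a CPM of 1. The same held for 24.1% of all genes in the table and for 55.3% of protein-coding genes. Together the 10 genes held 0.135% of the counts of KO1 and 0.129% of those of KO2. Levels are compared between genes in TPM, that is, per length of exon. By mean TPM, each of the 10 lay above 50% of the 17663 protein-coding genes with a count, and 6 of the 10 lay above 75% of them. In RNA from a whole culture, fewer cells that express a gene and less RNA per cell cannot be told apart.

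Nodal was at 39.3 TPM in KO1 and 58.5 TPM in KO2, a mean of 48.9 ± 13.5 TPM (SD, n = 2). The counts behind these levels were 1342 and 1971. Gdf3, a family member that acts through the same co-receptor, stood above it at 89.9 TPM in KO1 and 102.6 TPM in KO2, with counts of 3545 and 4000. The ranges of the ligand genes did not overlap. Nodal (ENSMUSG00000037171) is a plus-strand gene of chromosome 10 (GRCm38, 61417972 to 61425338). Gdf3 (ENSMUSG00000030117) is a minus-strand gene of chromosome 6 (122605403 to 122610087).

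Of 11 other genes listed for ligands of the family and the inhibin alpha chain, 3 were detected, beside 55.3% of protein-coding genes. Inhbb, which encodes the beta chain of activin B, was the highest at 68.9 TPM in KO1 and 86.3 TPM in KO2. Tgfb1 followed at 4.09 TPM in KO1 and 6.21 TPM in KO2. Inhba, the beta chain gene of activin A, and Mstn, the myostatin gene, had 0 counts in both libraries, which allows a level of up to 0.0528 CPM in KO1 and 0.0549 CPM in KO2. Gdf1, whose product pairs with Nodal in the embryo, was also listed at 0, but 100% of its exon bases lie under Cers1 on the same strand, so its level cannot be read from this table. Nodal and Gdf3 together made up 62.9% of the summed TPM of the listed ligand genes in KO1 and 62.5% in KO2, and Inhbb 33.5% in both. This sum left out the inhibin alpha chain gene and took Gdf1 as 0. Genes of bone morphogenetic proteins were not listed, so these are not shares of all ligands of the family. Of the activin beta chain genes that form activins A and B, reads were thus found for Inhbb only.

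Tdgf1, which encodes the co-receptor Cripto, was by far the most abundant of the 10. It was at 1374 TPM in KO1 and 1172 TPM in KO2 (mean 1273 ± 143 TPM, SD, n = 2), from 58661 and 49466 counts. This was above 99.5% of protein-coding genes with a count. It made up 79.0% of the summed TPM of the 10 genes in KO1 and 71.9% in KO2. Its relative Cfc1, which encodes the other EGF-CFC co-receptor, had 9 counts in KO1 and 19 in KO2, or 0.532 and 1.14 TPM, and 27.8% of its exon bases lie under Prss40 on the opposite strand, where reads cannot be told apart unless strand was used in counting. Tdgf1 (ENSMUSG00000032494) is a minus-strand gene of chromosome 9 (110939603 to 110946158). Of its 50-base windows, 8.86% also occur in the pseudogene Tdgf1-ps1 on chromosome 16, which had 1572 counts in KO1 and 1810 in KO2, so a part of the reads may have been assigned to either gene.

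**Figure D1:**
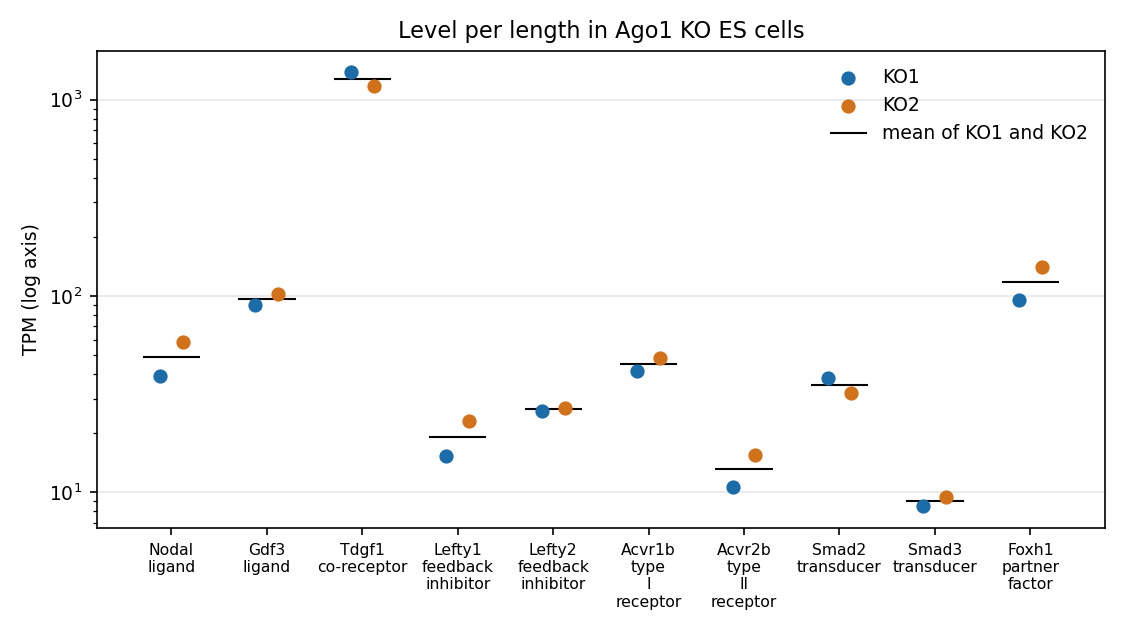
Level of each gene in TPM (log axis) in KO1 (blue) and KO2 (orange), with a bar at the mean, ordered by role in the pathway. Tdgf1 stands at 1374 and 1172 TPM, and all other genes lie between 8.50 and 141 TPM.

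The convertases that cut the Nodal precursor were detected unequally. Pcsk6, which encodes PACE4, was at 48.4 TPM in KO1 and 60.8 TPM in KO2. Furin was at 2.78 TPM in KO1 and 5.57 TPM in KO2, from 416 and 823 counts. Pcsk5, a related convertase, was below detection with 18 counts in KO1 and 17 in KO2. Of the 5 genes listed as convertases or co-receptors, 3 were detected, beside 55.3% of protein-coding genes.

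Lefty2 was at 26.0 TPM in KO1 and 27.0 TPM in KO2, from 1106 and 1135 counts. Lefty1 was at 15.3 TPM in KO1 and 23.1 TPM in KO2, from 438 and 653 counts. Lefty1 was thus the lower of the inhibitor genes in both libraries, with a Lefty1 to Lefty2 ratio of 0.588 in KO1 and 0.854 in KO2 (mean 0.721 ± 0.188, SD, n = 2). The TPM of both Lefty genes together stood close to that of Nodal, at 1.05 times Nodal in KO1 and 0.857 times in KO2. The genes are neighbours on chromosome 1, Lefty2 (ENSMUSG00000066652) from 180893108 to 180899103 and Lefty1 (ENSMUSG00000038793) from 180935022 to 180938400, both on the plus strand. They are close paralogs: 17.9% of the 50-base windows of Lefty1 transcripts also occur in Lefty2 and 307 of the 2560 windows of Lefty2 occur in Lefty1 or in Gm44212, which had 0 counts. The treatment of such shared reads in counting is not known here, which leaves the ratio between the Lefty genes uncertain to that extent.

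The other antagonists listed reached at most 5.90 TPM per exon length. Of 5 listed, 3 were detected, beside 55.3% of protein-coding genes. Bambi, a membrane pseudoreceptor gene, was highest at 5.67 TPM in KO1 and 5.90 TPM in KO2. Dand5, a Nodal antagonist of the Cerberus family, was at 2.56 TPM in KO1 and 2.47 TPM in KO2. For Cer1, the Cerberus gene itself, KO1 had 0 counts and KO2 had 1. Fstl3, an activin-binding follistatin relative, had 36 reads in KO1 and 51 in KO2, and 47.3% of its exon bases lie under Prss57 on the opposite strand. Per exon length, Lefty1 and Lefty2 were each above all of these antagonists in both libraries, but per coding length Bambi stood above Lefty1 in both.

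In zebrafish, Nodal and Lefty transcripts are known targets of a microRNA family, and in human ES cells Lefty transcripts are. In mouse ES cells this family is represented by the miR-290 and miR-302 clusters. The mature sequences are shown because Argonaute proteins carry them, with the seed (bases 2 to 8) in capitals, from RefSeq on GRCm38.p6. Mature microRNAs were not measured in these polyadenylated libraries. The first 5 share the seed AAGUGCU, and miR-290a-3p and miR-291b-3p differ from them in the last base of the seed. From the same clusters, miR-290b-3p, miR-292b-3p, miR-293-3p and miR-302c-3p have other seeds and were not searched. The set shown may not hold every member of the family.
mmu-miR-291a-3p: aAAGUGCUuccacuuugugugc
mmu-miR-294-3p: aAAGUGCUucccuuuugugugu
mmu-miR-295-3p: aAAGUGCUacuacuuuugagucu
mmu-miR-302b-3p: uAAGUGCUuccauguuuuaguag
mmu-miR-302d-3p: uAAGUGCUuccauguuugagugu
mmu-miR-290a-3p: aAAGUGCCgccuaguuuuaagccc
mmu-miR-291b-3p: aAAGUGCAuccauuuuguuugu

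The longest annotated 3′ UTR of 4 of the 10 genes, Nodal, Lefty1, Lefty2 and Smad2, held a match to the seed of a family member, beside 27.8% of 21037 genes with an annotated 3′ UTR. The search ran on the transcript strand. The match to the shared seed, AGCACTT, occurred in 14.7% of those genes. The match to the miR-290a-3p seed, GGCACTT, occurred in 8.07%. The match to the miR-291b-3p seed, TGCACTT, occurred in 2514 of those genes. With 10 genes, 4 matches are not set apart from that background. The matched stretches of the secreted factors follow with the match in capitals, on the plus strand of GRCm38. They are chr10:61425220-61425248 for Nodal, chr1:180938202-180938230 for Lefty1 and chr1:180897906-180897934 for Lefty2.
Nodal: ccagagaggtgGGCACTTgtccaagaggg
Lefty1: actgtatgcgaAGCACTTacatgtataga
Lefty2: cacccagtttaAGCACTTacatgggtaaa

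Among the sequences shown, the Lefty matches pair with the seed AAGUGCU and the Nodal match with the seed of miR-290a-3p. Both Lefty matches are followed by an A, and the stretches have 13 letters in common, AAGCACTTACATG. The 8-letter form AGCACTTA was taken from these Lefty sequences after they had been seen. Its presence in 2 of the 10, Lefty1 and Lefty2, was thus fixed in advance. It occurred in 2.97% of genes, a share with which the 10 cannot be compared for that reason. The UTRs searched were 702 bases long in Nodal, 425 in Lefty1, 1290 in Lefty2 and 6233 in Smad2, where the median of all genes was 960. Smad2 held 3 matches. Tdgf1, Gdf3, Acvr1b, Acvr2b, Smad3 and Foxh1 held none in their longest UTR. A match of letters is a description and does not show that a site is used.

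Acvr1b, which encodes the type I receptor ALK4, was at 41.8 TPM in KO1 and 48.5 TPM in KO2, from 3003 and 3448 counts. Acvr1c, the gene of the other type I receptor of Nodal, had 2 reads in KO1 and 1 in KO2. The ratio of Acvr1b to Acvr1c TPM was 3158 in KO1 (95% exact counting interval 873 to 26088) and 7252 in KO2 (1301 to 286516). Among the 7 type I receptor genes of the family, Acvr1b held 27.8% of the TPM in KO1 and 36.9% in KO2. The bone morphogenetic protein (BMP) receptor gene Bmpr1a held 44.7% in KO1 and 38.1% in KO2, and Tgfbr1 22.1% and 18.1%. Bmpr1b was below detection with 43 counts in KO1 and 27 in KO2. Acvr1b (ENSMUSG00000000532) is a plus-strand gene of chromosome 15 (101174067 to 101213684).

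Acvr2b, the gene of a type II activin receptor, was at 10.7 TPM in KO1 and 15.5 TPM in KO2, from 685 and 983 counts. Its relative Acvr2a was at 15.3 TPM in KO1 and 11.1 TPM in KO2. The order of the type II activin receptor genes was therefore opposite in the duplicates, with an Acvr2b to Acvr2a ratio of 0.701 in KO1 and 1.40 in KO2. The base composition of both genes is set beside this difference further below. Acvr2b held 24.8% of the TPM of the 5 type II receptor genes in KO1 and 33.6% in KO2. Bmpr2, the BMP type II receptor gene, was at 8.88 TPM in KO1 and 6.55 TPM in KO2, and Amhr2, which encodes the anti-Müllerian hormone receptor, at 7.75 and 12.5 TPM. Tgfbr2, the receptor gene that TGF-beta itself needs, was at 0.548 TPM in KO1 and 0.531 TPM in KO2. Acvr2b (ENSMUSG00000061393) is a plus-strand gene of chromosome 9 (119402118 to 119434995).

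Smad2 was at 38.4 TPM in KO1 and 32.0 TPM in KO2, from 5494 and 4518 counts. Smad3 was the lowest of the 10 genes, at 8.50 TPM in KO1 and 9.53 TPM in KO2, from 767 and 850 counts. Smad2 exceeded Smad3 4.52-fold in KO1 and 3.35-fold in KO2 (mean 3.94 ± 0.825, SD, n = 2). Among the 5 receptor-regulated SMAD genes, Smad2 and Smad3, which serve activin and Nodal, together held 55.1% of the TPM in KO1 and 55.5% in KO2. The BMP-regulated Smad5 held 32.5% in KO1 and 31.2% in KO2, and Smad1 12.1% and 12.9%. Smad2 (ENSMUSG00000024563) is a plus-strand gene of chromosome 18 (76241580 to 76310963), and Smad3 (ENSMUSG00000032402) a minus-strand gene of chromosome 9 (63646767 to 63757994).

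Of the 6 other SMAD genes, 5 were detected, beside 55.3% of protein-coding genes. The common partner Smad4 was at 79.1 TPM in KO1 and 67.8 TPM in KO2. Smad7, an inhibitory SMAD gene that the pathway induces, was at 68.3 TPM in KO1 and 79.5 TPM in KO2. Per exon length both stood above Smad2 in each library, but per coding length Smad4 lay below Smad2 in both. Smad6, the other inhibitory SMAD gene, was at 1.80 TPM in KO1 and 3.18 TPM in KO2, and Smad9, a BMP-regulated one, had 24 counts in KO1 and 29 in KO2. All 11 listed cofactors and regulators of SMADs were detected, beside the same 55.3%. They ran from Tgif1, a co-repressor gene, at 131 TPM in KO1 and 123 TPM in KO2 to the ubiquitin ligase gene Nedd4l at 8.45 and 8.19 TPM. Drap1, whose product restrains Nodal signalling in the mouse embryo, was at 49.7 TPM in KO1 and 71.0 TPM in KO2, and Smurf1, a ubiquitin ligase gene, at 16.6 and 19.5 TPM.

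**Figure D2:**
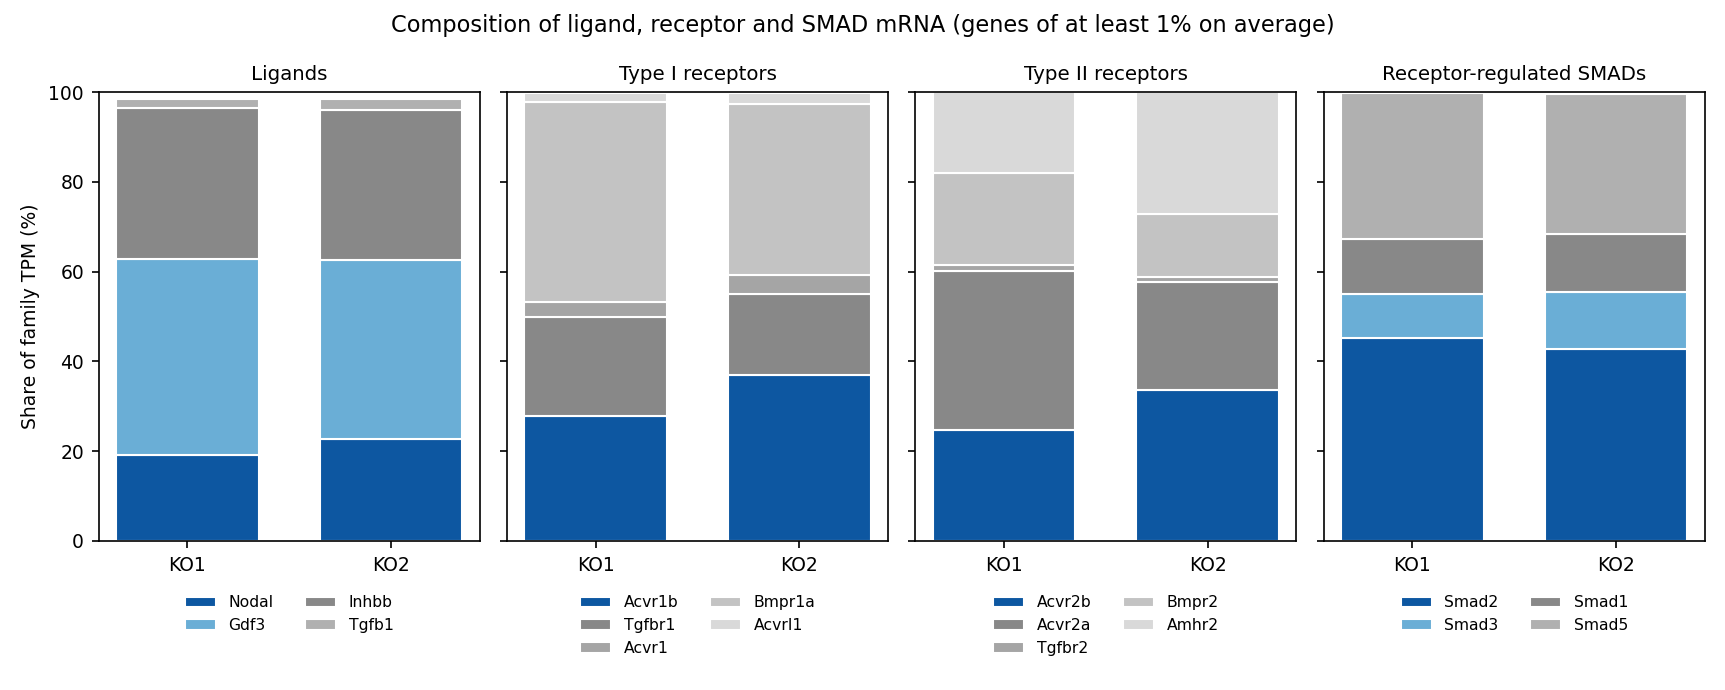
Share of each gene in the summed TPM of its family as listed (percent, linear axis from 0) in KO1 and KO2. Nodal and activin signalling genes are in blue and other members in grey, and genes with a mean share under 1% are left out. The ligand list holds no bone morphogenetic protein gene. Nodal and Gdf3 together hold 62.9% and 62.5% of the TPM of the listed ligand genes, and Smad2 and Smad3 together 55.1% and 55.5% of the receptor-regulated SMAD TPM.

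Foxh1 was at 95.5 TPM in KO1 and 141 TPM in KO2 (mean 118 ± 32.1 TPM, SD, n = 2), from 2121 and 3094 counts. By mean level it was second to Tdgf1, above 91.7% of protein-coding genes with a count. Foxh1 (ENSMUSG00000033837) is a minus-strand gene of chromosome 15 (76668225 to 76669948). Of 8 listed transcription factor genes that act with or downstream of Nodal in the embryo, 3 were detected, beside 55.3% of protein-coding genes. Otx2, a homeobox gene of the epiblast, was at 11.9 TPM in KO1 and 12.2 TPM in KO2, and Eomes, a T-box gene of mesendoderm, at 4.44 and 4.80 TPM. Gsc, the goosecoid gene, had 2 reads in KO1 and 1 in KO2, and Lhx1, a LIM homeobox gene, had 5 in each. These low counts stood beside detected ligand, receptor and transducer genes.

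Promoter windows of 300 bases around the gene start were available from RefSeq (GRCm38.p6) for 5 of the 10 genes, Nodal, Tdgf1, Acvr1b, Acvr2b and Smad3. TGTNNATT, a loose form of the FOXH1 motif with both middle bases open, was searched on both strands. It occurred in 1 of these 5, Tdgf1, beside 13.9% of 27025 genes in the promoter table. The stricter form AATCCACA, with both open bases fixed, occurred in 0 of the 5, beside 1.01% of those genes. The Tdgf1 window held TGTNNATT at 2 places, each on the strand opposite to the gene. Both read AATTTACA along the minus strand, which differs from AATCCACA at both open bases. Such a match of letters does not show that FOXH1 binds there. The 2 places are shown as read along the minus strand with the match in capitals, at chr9:110946268-110946295 and chr9:110946242-110946269.
Tdgf1, outer: acctatagaaAATTTACAtataaccaga
Tdgf1, inner: gactatagagAATTTACAtaaaaaccaa

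Ranked by mean TPM, the 10 genes followed the order Tdgf1, Foxh1, Gdf3, Nodal, Acvr1b, Smad2, Lefty2, Lefty1, Acvr2b and Smad3. Neighbours in this order were called apart where both libraries of the upper gene exceeded both of the lower. This held for 6 of 9 pairs. Foxh1 and Gdf3, Nodal and Acvr1b, and Lefty1 and Acvr2b overlapped and are not ordered by this rule. Compared within each library per exon length, Foxh1 stood above Gdf3 and Lefty1 above Acvr2b in both. Nodal lay below Acvr1b in KO1 and above it in KO2.

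The order depended in part on the length used. Exon length ran from 1365 bases in Foxh1 to 8781 in Smad2, and coding length from 513 in Tdgf1 to 1608 in Acvr2b. With TPM per coding length, Smad2 was second at 80.1 TPM in KO1 and 67.9 TPM in KO2, and overlapped with Gdf3 at 65.9 and 76.7 TPM. Foxh1 then ranked below Gdf3, at 36.0 TPM in KO1 and 54.2 TPM in KO2, and Lefty1 was the lowest at 8.10 and 12.5 TPM. Tdgf1 was first under each of the 3 lengths. With the longest transcript as the length, the order by mean was that of the union of exons. Foxh1 then lay below Gdf3 in KO1, at 71.8 against 77.1 TPM, and above it in KO2.

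**Figure D3:**
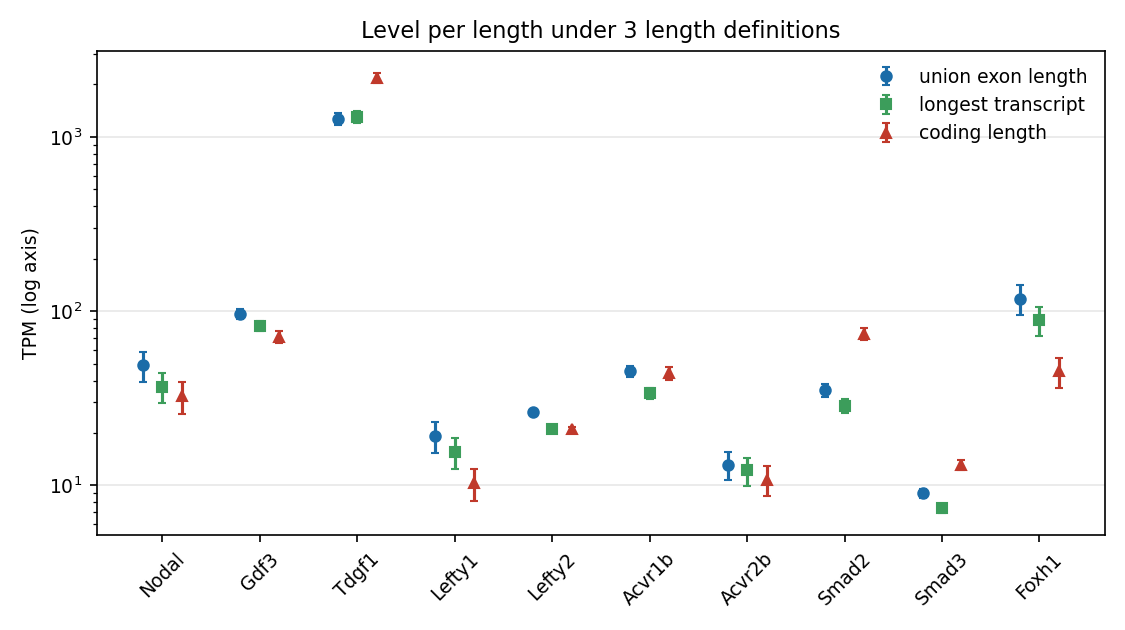
Mean TPM (log axis) of each gene with counts divided by union exon length (circles), the longest transcript (squares) or coding length (triangles); bars reach from the lower to the higher library. Tdgf1 is highest under all 3, while Smad2 has a mean of 35.2 TPM by union exon length and 74.0 TPM by coding length.

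The duplicates were compared as the ratio of scaled counts, KO1 over KO2, with a 95% exact interval that covers counting error only. None of the 10 genes had an interval wholly beyond 2-fold, where 1.06% of 15619 genes did, 0.0768% on the side of KO1 and 0.98% on that of KO2. The same was true of the 46 other pathway genes with enough reads to compare. The interval lay wholly above equality for Tdgf1 and Smad2 and wholly below it for 7 genes, beside 31.2% and 34.3% of all genes. Lefty2 was the gene whose interval held equality. Tdgf1 and Smad2 were 1.14-fold and 1.17-fold higher in KO1. Lefty2, Gdf3, Acvr1b and Smad3 had log2 ratios from -0.26 to -0.09. Nodal, Lefty1, Acvr2b and Foxh1 had log2 ratios from -0.63 to -0.58 and were 1.49-fold to 1.55-fold higher in KO2. Among the 11 SMAD cofactors and regulators, 6 intervals lay wholly above equality and 4 wholly below it. Among the 7 other ligand genes compared, 0 lay above it and 3 below.

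The ratios ran with transcript GC content. Tdgf1 and Smad2 had the lowest GC content of the 10, at 45.3% and 44.9%, and Lefty1 and Foxh1 the highest, at 58.6% and 59.1%. Across the 10 genes the Spearman correlation of the log2 ratio with GC content was -0.927. Across 15603 genes it was -0.811, and genes of the same libraries are not independent. The median log2 ratio was -0.24 for the 10 genes, whose median GC content was 53.3%, and -0.01 for all genes, whose median GC content was 49.6%.

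**Figure D4:**
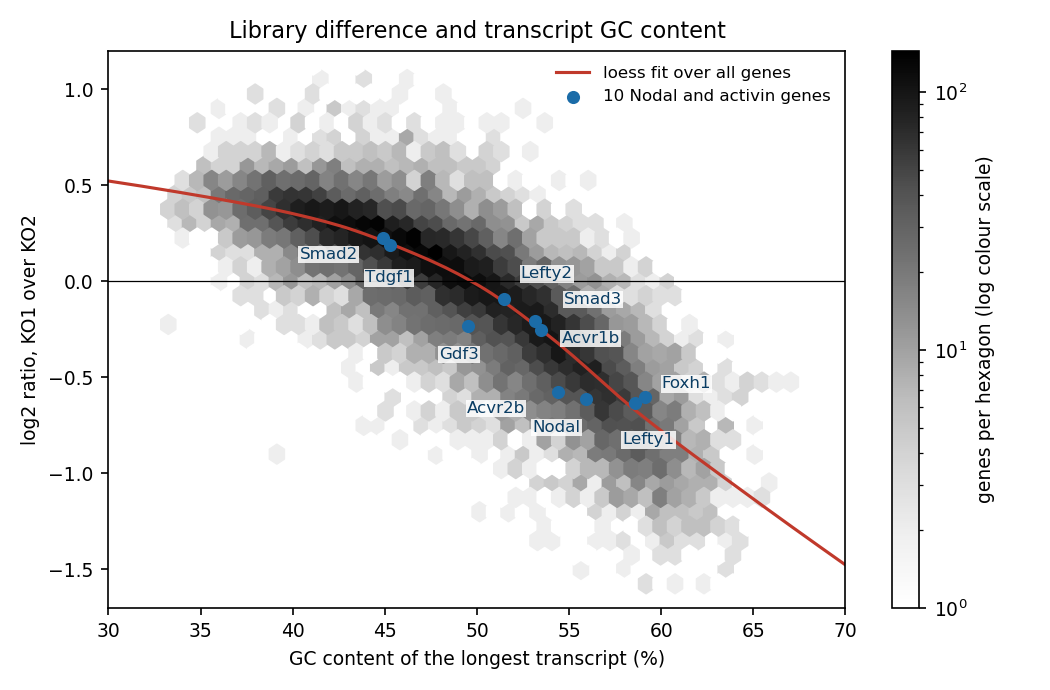
Log2 ratio of KO1 over KO2 against GC content of the longest transcript for 15603 genes (grey hexagons, log colour scale; axes cropped), with the loess fit (line) and the 10 genes (points). Tdgf1 and Smad2 lie at low GC content above 0, and Nodal, Lefty1, Acvr2b and Foxh1 at higher GC content between -0.63 and -0.58.

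After a loess correction for GC content, the median log2 ratio of the 10 genes was 0.005, and 6 of the 10 intervals held equality. Tdgf1, Smad2, Lefty1, Lefty2, Acvr1b and Smad3 had corrected log2 ratios between -0.01 and 0.04. Foxh1 was at 0.11 (95% interval 0.03 to 0.19), the only one wholly above equality, beside 20.5% of all genes. Gdf3 was at -0.24 (-0.31 to -0.18), Acvr2b at -0.25 (-0.40 to -0.11) and Nodal at -0.16 (-0.26 to -0.06), wholly below it, beside 19.8% of all genes. Gdf3 had a GC content of 49.5% and a log2 ratio of -0.23 before the correction, nearly that after it. Lefty1 and Foxh1 stood at -0.63 and -0.60 before it, against 0.04 and 0.11 after it. Acvr2a, which is not among the 10, had a GC content of 39.9%, and Acvr2b had 54.4%. The log2 ratio of Acvr2a was 0.42 before the correction and 0.07 after it, and that of Acvr2b -0.58 and -0.25. The part of GC content in the opposite order of these receptor genes in the duplicates was not tested.

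**Figure D5:**
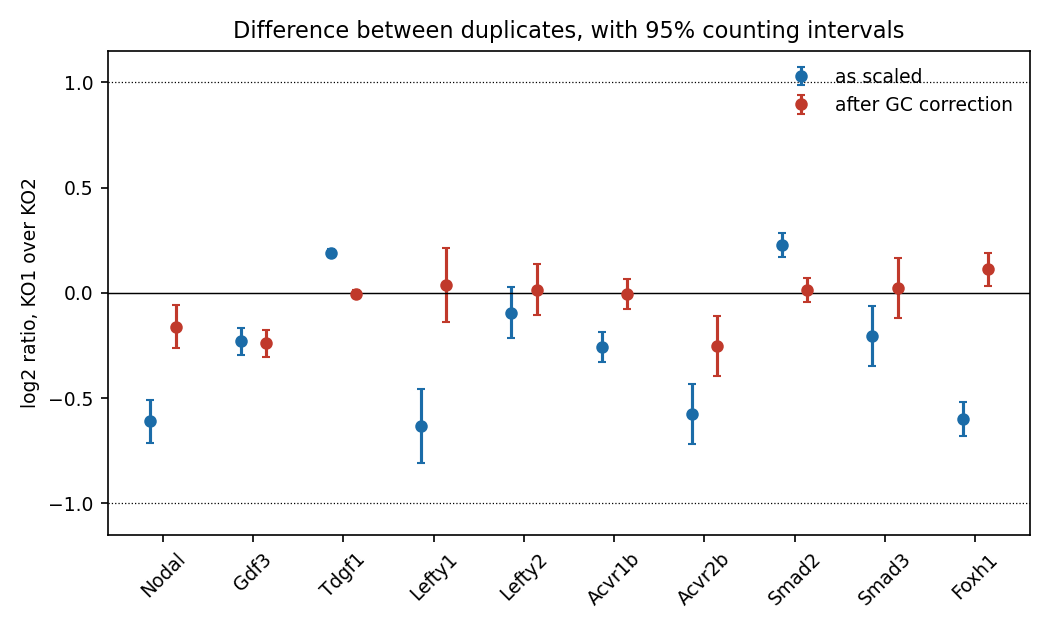
Log2 ratio of KO1 over KO2 for each gene with its 95% counting interval, as scaled (blue) and after the GC correction (red); dotted lines mark 2-fold. After the correction 6 of 10 intervals include 0, and Gdf3, Acvr2b and Nodal lie below it at -0.24, -0.25 and -0.16.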

How the data were processed

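Raw read counts by gene, whole numbers with no normalization, were deposited by the authors as 1 table. Per the submitters' processing notes, GRCm38 was used as the build; no source used here names the aligner, the counter, its strand setting or the annotation. Columns not mapped to a sample numbered 0. Of 55421 identifiers, 55240 matched GENCODE release M21, and the other 181 held 0.00416% of counts. None of the 10 genes shares exon bases with another gene.

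Counts were scaled with edgeR 4.0.16 (R 4.3.3) by trimmed mean of M values (TMM), with factors of 0.996 and 1.00. TPM used the union of exons. Ratios KO1 over KO2 had exact conditional binomial intervals and a prior count of 0.5; a gene was compared at a summed count of at least 50. The common biological coefficient of variation over 13347 genes was 0.193, without GC correction. With 1 group, no test between groups was possible and no p-value is given. GC correction was loess with a span of 0.3. Floors take 3 counts for a count of 0, and intervals cover counting error only, since PCR copies are not independent molecules. The interval and the 2-fold rule were tested on simulated counts that held counting error only. That simulation had no GC trend and no TMM scaling, so it does not cover those steps.

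Genes, lists and alternatives were chosen with earlier results of these data known. Named genes were the 10, Ago1, and of each pathway list the 2 highest, the 2 lowest and any at 0 counts. Smad1 and Smad5 fell outside that rule and were named for the shares of receptor-regulated SMAD TPM. Cell type markers and genes that overlap or share sequence with a named gene were also named. Software was python 3.11.15, scipy 1.17.1, pandas 2.3.3, statsmodels 0.14.6 and DESeq2 1.42.0.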

Additional observations from a re-analysis of the deposited data

How the results depend on the processing

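No paired analysis was possible because there is a single group of samples. All 10 genes were detected at a CPM minimum of 0.5 or 5, under each scaling and in each library alone, and none differed beyond 2-fold between libraries under any scaling, filter or fold tried or with the GC correction. The 36 of 56 other pathway genes detected, beside 55.3% of protein-coding genes, became 27 to 42 under those settings. With coding length, the Lefty1 to Lefty2 ratio was 0.486 against 0.721, that of Smad2 to Smad3 5.68 against 3.94, and the Acvr1b share of type I receptor TPM 25.9% against 32.4%. The share of Nodal and Gdf3 in the TPM of the listed ligand genes was 63.5% with the longest transcript and 50.6% with coding length, against 62.7%. That of Smad2 and Smad3 in receptor-regulated SMAD TPM was 51.3% and 58.9%, against 55.3%. These shares were recomputed after seeing the data. The median log2 ratio of the 10 genes was -0.24 and 0.0049 with the GC correction, which changed its sign, and stayed between -0.26 and -0.19 under the other settings. The stricter FOXH1 motif AATCCACA occurred in 0 of 5 promoters, against 1 for TGTNNATT, and in 1.01% of all genes. Leaving out a library gives the value of the other, which for 2 values is always under 1 SD from the mean, and says nothing about stability. DESeq2 size factors were 1 for both libraries. Depth limits Acvr1c, Cer1, Gsc and Lhx1, each with 5 counts or fewer per library.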
